A study of Homo sapiens with 17 samples.

Results

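The genes described here were at a low level with DMSO in Cal27 cells and in their labelled NSD1 knockout. They were read above a set level in the knockout given the EZH2 inhibitor EPZ-6438. They were chosen by their mean CPM (a gene's read count scaled to a total of 1000000 counts in its library) in 6 libraries: at most 1 CPM with DMSO in Cal27, at most 1 CPM with DMSO in the labelled knockout, and at least 3 CPM with EPZ-6438. Of 27534 gene symbols without a dot, 15230 were at or below 1 CPM in both DMSO groups, a state called silent here, and 50 of those, 0.328%, met the third limit. Another 273 silent genes, 1.793%, came to between 1 and 3 CPM with EPZ-6438, and 14907 stayed under 1 CPM. In the opposite direction, of 10640 genes at 3 CPM or more in both DMSO groups, 1 was at or below 1 CPM with EPZ-6438: BLOC1S5-TXNDC5, a read-through locus named after its values were seen. Those 10640 genes had no upper limit, and a highly read gene needs a large fall to reach 1 CPM. The counts of 50 and 1 are therefore not mirror measures.

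EZH2 is the catalytic subunit of Polycomb repressive complex PRC2, which methylates histone H3 at lysine 27, and the trimethyl form, H3K27me3, marks genes that are held silent. NSD1 is a methyltransferase that places H3K36me2, a mark that hinders PRC2 on the same histone tail. EPZ-6438, also called tazemetostat, blocks the catalytic site of EZH2, so that H3K27me3 is lost as cells divide, and genes that depend on it can become readable. Known targets of PRC2 in epithelial cancers include lineage regulators, secreted factors and immune genes, and many of their promoters are rich in CpG dinucleotides.

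The 6 libraries came from Cal27, an established line of head and neck squamous cell carcinoma: 2 of Cal27 with DMSO (the solvent control), 2 of a Cal27 derivative labelled as an NSD1 knockout with DMSO, and 2 of that derivative with EPZ-6438. A further 4 libraries were untreated, 1 each of Cal27, its labelled knockout, and SKN3 and BICR78, which are other head and neck tumour lines. The labels give no dose or time of treatment, do not say whether the knockout is a single clone, and do not say whether replicates were separate cultures. No Cal27 library with EPZ-6438 was analysed here, so the inhibitor's effect on parental cells cannot be told apart from its effect on the knockout.

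NSD1 itself was at 110.0 and 110.5 CPM in Cal27 with DMSO, 165 and 164 CPM in the labelled knockout with DMSO, and 162 and 151 CPM with EPZ-6438. In the untreated libraries NSD1 was at 144 CPM in Cal27, 211 CPM in the labelled knockout, 84.3 CPM in SKN3 and 0.462 CPM in BICR78. NSD1 was thus higher in the libraries labelled knockout than in those of Cal27, with DMSO and untreated. The labels do not say how the knockout was made, so the counts do not check that label, by which the cells are called the knockout below. Each library held 11745655 to 15509079 counts in the DMSO and EPZ-6438 groups and 17587063 to 21738951 counts when untreated, so that 1 CPM stood for 11.7 to 21.7 reads. All 12 squamous epithelial markers were at 1 CPM or more in every library. CPM also depends on transcript length, so a higher CPM in 1 gene than in another does not show more transcripts.

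Summed over the 50 genes, the level was 25.64 and 25.63 CPM in Cal27 with DMSO, 19.61 and 21.69 CPM in the labelled knockout with DMSO, and 289.81 and 293.12 CPM with EPZ-6438. Both EPZ-6438 libraries lay above all 4 DMSO libraries for each of the 50 genes, an order that the limits largely set. Of all genes tested with edgeR, 25.6% were called higher with EPZ-6438 in the knockout, but the limits used this contrast and nothing is read from the count. In these bulk libraries, more cells with reads of a gene and more RNA per cell cannot be told apart. The closest approach was a lower EPZ-6438 library at 2.44 times the highest DMSO library. With EPZ-6438, 4 genes reached 10 CPM or more (DMBT1, LMO2, C4orf19 and VNN3), 16 were between 5 and 10 CPM, and 30 were between 3 and 5 CPM. The ratio of EPZ-6438 to DMSO within the knockout ran from 3.33 to 260.5 with a median of 14.3, and was 10 or more for 31 genes. Against Cal27 with DMSO it ran from 3.56 to 177 with a median of 10.1. The replicates agreed to a median ratio of 1.20 between the 2 EPZ-6438 libraries, and the widest gap, 2.05, was that of C4B.

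**Figure D1:**
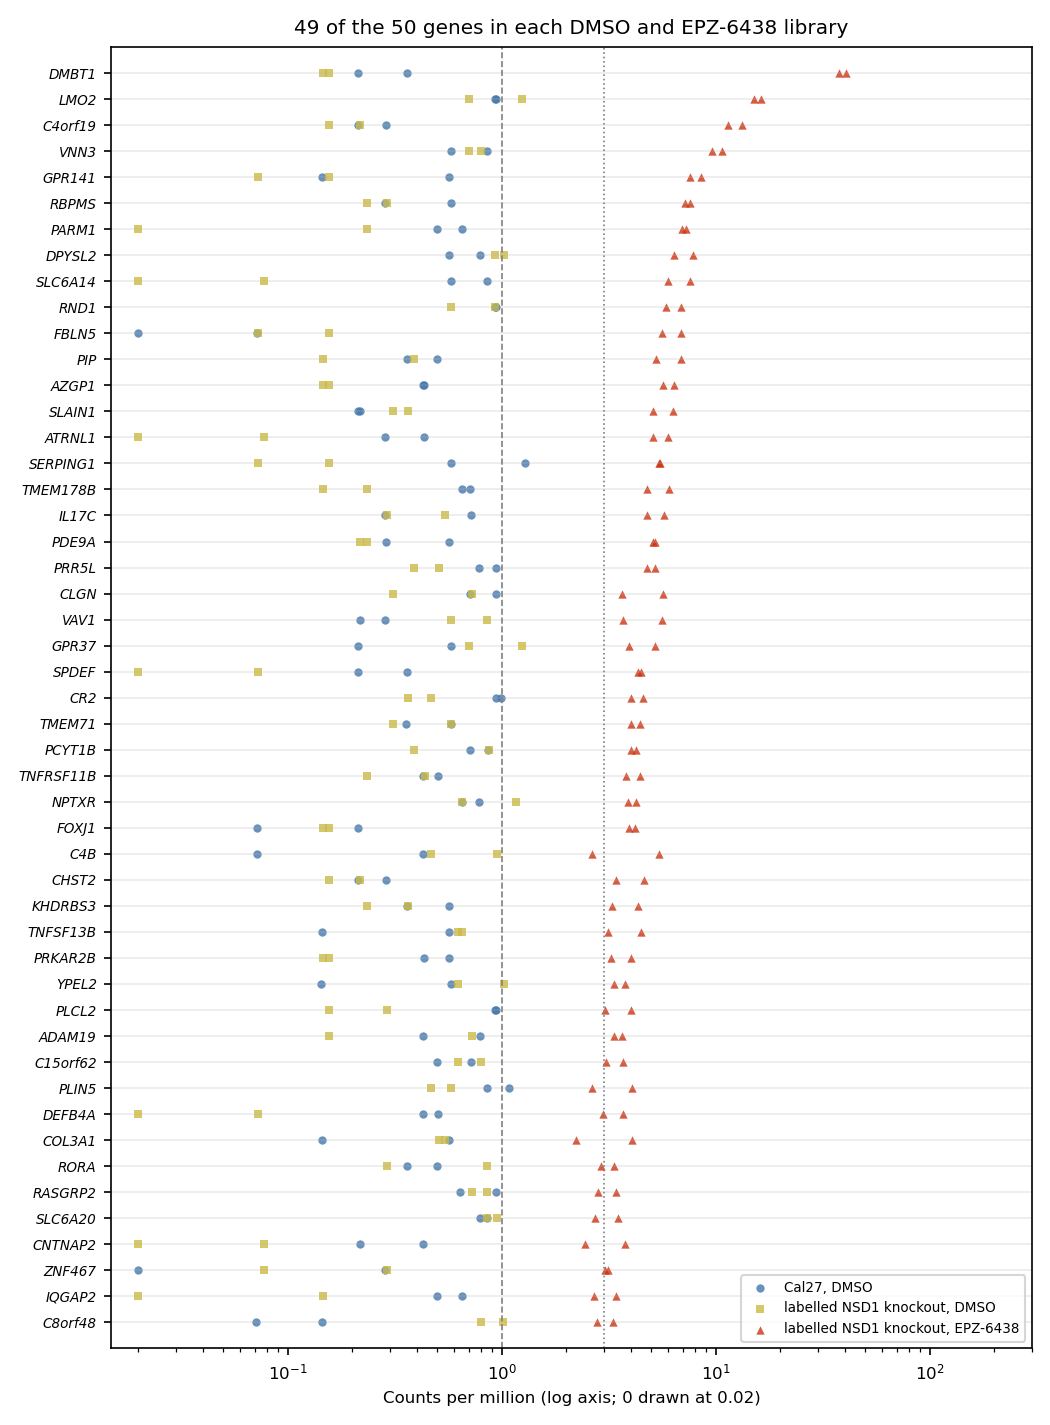
CPM (log axis) of 49 of the 50 genes, in order of mean level with EPZ-6438, in the 2 Cal27 DMSO libraries (circles), the 2 labelled knockout DMSO libraries (squares) and the 2 EPZ-6438 libraries (triangles); dashed and dotted lines mark the limits of 1 and 3 CPM, and a 0 is drawn at 0.02. The triangles lie to the right of every circle and square of the same gene, from 37.5 and 40.5 CPM for DMBT1 at the top to 3.32 and 2.77 CPM for C8orf48 at the bottom.

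The limits cut through a continuous range of values. Just inside the EPZ-6438 limit were C8orf48 at 3.05 CPM, IQGAP2 at 3.06 CPM and ZNF467 at 3.09 CPM, and just outside it FREM2 at 2.99 CPM, AGAP2 at 2.95 CPM and ILDR2 at 2.91 CPM. At the Cal27 limit, PLIN5 at 0.969 CPM, CR2 at 0.968 CPM and LMO2 at 0.932 CPM were kept, and PTPRD at 1.004 CPM, WIPF1 at 1.005 CPM and BBOX1 at 1.01 CPM were not, although BBOX1 came to 10.2 CPM with EPZ-6438. At the knockout limit, DPYSL2 at 0.977 CPM and GPR37 at 0.969 CPM were kept, and STEAP4 at 1.09 CPM, IL4I1 at 1.12 CPM and GOLT1A at 1.18 CPM were not. All 50 genes had reads in both DMSO groups, 10 of them with 1 to 3 summed reads in the knockout with DMSO, so a high ratio often stood on very few reads below it.

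When the same limits were applied to the replicate 1 libraries alone, they chose 54 genes, of which 46 were at 3 CPM or more in the other EPZ-6438 library and 34 met every limit in the replicate 2 libraries. For 53 of the 54 the replicate 2 level with EPZ-6438 was above both replicate 2 DMSO levels. The exception, CKS1BP3, a pseudogene named after its values were seen, was at 0 there. The replicate 2 libraries alone chose 49 genes, of which 38 were at 3 CPM or more in the other EPZ-6438 library, 34 met every limit and 49 were above both DMSO levels. The order of the groups thus repeated between these libraries for nearly all genes, while the side of a limit on which a gene fell often did not. No label says that the replicates were separate cultures, so this agreement may be that of technical repeats.

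Secreted proteins of mucosal defence made up a first group. DMBT1 encodes a scavenger-receptor glycoprotein of saliva and mucus that binds bacteria. It was at 0.214 and 0.361 CPM in Cal27 with DMSO, 0.156 and 0.146 CPM in the knockout with DMSO, and 37.5 and 40.5 CPM with EPZ-6438 (mean 39.0 ± 2.14, SD, n = 2). All 4 DMSO libraries were close to 0 and both EPZ-6438 libraries stood far above them. The ratio within the knockout was 260.5 (exact 95% interval 101 to 958, covering counting error only, as do all intervals here), on 4 reads against 1068. DMBT1 (chr10:122560754-122643736, GRCh38.p14) gave 13.4% of all reads of the 50 genes with EPZ-6438, and without it the sum over the other genes was still 252.49 CPM, against 20.5 CPM with DMSO.

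DEFB4A, which encodes the antimicrobial peptide beta-defensin 2, was at 0.427 and 0.505 CPM in Cal27 with DMSO, 0 and 0.0728 CPM in the knockout with DMSO, and 2.98 and 3.68 CPM with EPZ-6438. It has a near-identical copy, DEFB4B, whose mean was 0.335 CPM with DMSO and 1.09 CPM with EPZ-6438 in the knockout, so the split of reads between the copies is uncertain. PIP, the prolactin-induced protein of salivary and apocrine glands, was at 0.499 and 0.361 CPM, 0.389 and 0.146 CPM, and 5.28 and 6.90 CPM in the same order. AZGP1, a secreted glycoprotein of glandular epithelium, was at 0.427 and 0.433 CPM, 0.156 and 0.146 CPM, and 6.39 and 5.67 CPM. For these 3 genes and DMBT1, as for all 50, both EPZ-6438 libraries lay above every DMSO library, an order largely set by the limits.

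The promoters of DMBT1 and PIP are shown because both genes are known secreted products of glands and mucosa and both have few CpG dinucleotides before the start, unlike the promoters usually held as typical of PRC2 targets. Each is the 250 bases before the RefSeq gene start in GRCh38.p14, plus strand, DMBT1 at chr10:122560504-122560753 and PIP at chr7:143131827-143132076, with CpG dinucleotides in capitals.
DMBT1: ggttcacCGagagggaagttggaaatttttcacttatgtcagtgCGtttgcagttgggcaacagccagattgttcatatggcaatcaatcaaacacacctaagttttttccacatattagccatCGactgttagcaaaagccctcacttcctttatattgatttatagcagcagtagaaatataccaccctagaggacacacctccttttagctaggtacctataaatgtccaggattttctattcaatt
PIP: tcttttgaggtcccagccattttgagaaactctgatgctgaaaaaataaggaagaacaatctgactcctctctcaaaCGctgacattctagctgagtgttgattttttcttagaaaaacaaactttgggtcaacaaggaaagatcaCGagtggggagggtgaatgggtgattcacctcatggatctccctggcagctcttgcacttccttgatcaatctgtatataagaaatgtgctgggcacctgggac
The DMBT1 window held 3 CpG dinucleotides and 39.6% G and C, and the letters TATAAA began 29 bases before the start. The PIP window held 2 CpG dinucleotides and 43.6% G and C, with a match to TTCNNNGAA (the letters of a STAT site, GAS) beginning 144 bases and one to TGANTCA (AP-1) beginning 83 bases before the start. A match describes the letters and is not a binding site. Whether these promoters carried H3K27me3 was not tested.

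The mucosal defence list held 62 genes, of which 43 were silent in both DMSO groups. Of those 43, 2 (DMBT1 and DEFB4A) were among the 50, where 0.328% of all silent genes were. Of the other genes of that list 22 could be tested for EPZ-6438 against DMSO in the knockout, and 20 rose and 0 fell, with a median log2 change of 1.83. Some passed the low-count filter through their EPZ-6438 level and could hardly be called lower. LPO had 1, 2, 4 and 0 reads in the DMSO libraries and 22 in each EPZ-6438 library. The list was also chosen with earlier results known, so the counts are a description. The same may hold in the lists below. Over all 13241 tested genes 25.6% rose and 23.9% fell, with a median of 0.00 on the log2 scale (edgeR quasi-likelihood test, Benjamini-Hochberg adjusted p below 0.05). LCN2, an iron-siderophore-binding protein, rose by 1.77 ± 0.02 on the log2 scale (SE, edgeR adjusted p = 4.75e-19). FCGBP, a mucus-associated protein, went from 1.712 and 1.601 CPM to 139 and 147 CPM, a log2 change of 6.43 ± 0.10 (edgeR adjusted p = 4.78e-18), and it was no member because both of its DMSO means were above 1 CPM. PI3, the protease inhibitor elafin, and PIGR, which carries IgA across epithelia, rose by 4.77 and 3.84 on the log2 scale. With DMSO, PI3 was lower in the knockout than in Cal27, by 3.23 on the log2 scale. Between those DMSO groups 5 of the 22 genes rose in the knockout and 11 fell, where 16.4% and 19.5% of all tested genes did. Every one of the 50 genes passed the low-count filter, which their EPZ-6438 level alone could satisfy. All 50 were called higher with EPZ-6438 in the knockout, with log2 changes from 1.73 for C8orf48 to 7.93 for DMBT1. Because the limits used this contrast, nothing is read from that count.

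Complement contributed 3 genes. SERPING1 encodes the C1 inhibitor, which restrains the first step of the classical pathway; it was at 1.28 and 0.578 CPM in Cal27 with DMSO, 0.156 and 0.0728 CPM in the knockout with DMSO, and 5.45 and 5.48 CPM with EPZ-6438. One of its Cal27 libraries was thus above 1 CPM, and its EPZ-6438 libraries were nearly equal. CR2, the receptor for C3d known from B cells, was at 0.997 and 0.939 CPM, 0.467 and 0.364 CPM, and 4.001 and 4.578 CPM in that order. C4B, which encodes complement C4, was at 0.427 and 0.0722 CPM, 0.467 and 0.946 CPM, and 2.64 and 5.42 CPM. C4A, the near-identical neighbour of C4B, had means of 1.08, 1.53 and 7.74 CPM in the same groups, so reads of the pair may have been split between them. With C4A above 1 CPM in both DMSO groups it was no member.

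Of the 38 complement genes, 22 were silent in both DMSO groups and 3 of these 22 were members, where 0.328% of all silent genes were. Among 18 tested complement genes outside the set, 13 rose and 0 fell with EPZ-6438, with a median log2 change of 0.76. Over all tested genes 25.6% rose and 23.9% fell. CFB, factor B of the alternative pathway, went from 163 and 167 CPM to 784 and 787 CPM, a log2 change of 2.25 ± 0.03 (edgeR adjusted p = 5.39e-19). C1S and C1RL rose by 1.27 and 0.99 on the log2 scale, and C3, the central component, rose by 0.62. Those 4 genes were at 40 CPM or more in every DMSO library.

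Cytokine and TNF family genes made up 3 members. IL17C, an epithelial cytokine that acts back on epithelium, was at 0.285 and 0.722 CPM in Cal27 with DMSO, 0.545 and 0.291 CPM in the knockout with DMSO, and 5.70 and 4.77 CPM with EPZ-6438. TNFRSF11B, osteoprotegerin, a soluble decoy receptor of RANKL, was at 0.427 and 0.505 CPM, 0.233 and 0.437 CPM, and 4.427 and 3.804 CPM. TNFSF13B, the B-cell survival factor BAFF, was at 0.570 and 0.144 CPM, 0.623 and 0.655 CPM, and 3.15 and 4.45 CPM. In all 3, as in all 50, the EPZ-6438 libraries were separate from the DMSO libraries, while the DMSO groups overlapped each other for IL17C and TNFRSF11B.

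Of 52 silent cytokine and cytokine receptor genes 1 was a member, of 22 silent TNF family genes 2 were, and of 33 silent chemokines 0 were. Of all silent genes 0.328% were members. Of the chemokines 3 came to between 1 and 3 CPM. Outside the set, 28 TNF family genes were tested, of which 13 rose and 7 fell with EPZ-6438 (median log2 change 0.38). TNFSF10, the death ligand TRAIL, rose by 1.91 and CD70 by 5.28 on the log2 scale, NGFR rose by 1.27, and TNFRSF21 fell by 0.87. Of 59 cytokine genes outside the set, 31 rose and 8 fell (median log2 change 0.31). Within the knockout IL19 went from 0.545 and 0.218 CPM to 17.4 and 17.9 CPM. LIFR and IFNGR1 rose by 2.08 and 0.71 on the log2 scale, and IL7R fell by 1.20. Both families thus held called changes in each direction, as did all tested genes, of which 25.6% rose and 23.9% fell.

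Several members are best known from blood cells. LMO2, a LIM-domain adaptor of haematopoietic transcription complexes, was at 0.926 and 0.939 CPM in Cal27 with DMSO, 0.700 and 1.24 CPM in the knockout with DMSO, and 16.2 and 15.2 CPM with EPZ-6438 (mean 15.7 ± 0.724, SD, n = 2). VAV1, a guanine nucleotide exchange factor of lymphocyte signalling, was at 0.285 and 0.217 CPM, 0.856 and 0.582 CPM, and 5.62 and 3.68 CPM. VAV1 was higher in both knockout DMSO libraries than in both Cal27 DMSO libraries, and for LMO2 the DMSO groups overlapped. RASGRP2, an exchange factor for RAP1 in platelets, came to 2.81 and 3.42 CPM with EPZ-6438 from 0.856 and 0.728 CPM in the knockout with DMSO. PLCL2, a catalytically inactive phospholipase C relative, came to 4.001 and 3.030 CPM.

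Markers of leukocytes were read in the same libraries. CD53 and MS4A1 were at 0 in all 6 libraries, PTPRC, which encodes the pan-leukocyte protein CD45, lay between 0.0851 and 0.499 CPM, and CD3E had reads in 1 of the 6. Summed over 7 pan-leukocyte genes, the level was 49.9 to 52.9 CPM in Cal27 with DMSO, 95.1 to 95.3 CPM in the knockout with DMSO and 147 to 149 CPM with EPZ-6438, most of it from LAPTM5 at 103 and 108 CPM and LCP1 at 28.9 and 27.3 CPM with EPZ-6438. Summed over 20 T and NK cell markers the range was 2.99 to 4.91, 3.28 to 4.13 and 5.16 to 6.56 CPM in that order, with 12 of the 20 at 0 in each EPZ-6438 library. The 10 B and plasma cell markers summed to 1.07 to 2.17, 1.09 to 1.53 and 3.24 to 4.32 CPM. The 16 myeloid markers summed to 59.6 to 61.9, 108 to 112 and 126 to 136 CPM, of which CD14 gave 31.7 and 32.6 CPM with EPZ-6438. Of 5 tested pan-leukocyte genes 4 rose and 1 fell with EPZ-6438, where 25.6% and 23.9% of all tested genes did. IKZF1, a lymphoid transcription factor, went from 0.700 and 0.364 CPM to 7.66 and 6.51 CPM (log2 change 3.72), WAS, LCP1 and LAPTM5 rose by 2.78, 1.47 and 0.57 on the log2 scale, and CORO1A fell by 1.12. LCK, a T cell kinase, and BANK1, a B cell adaptor, rose by 1.7037 and 1.7645 on the log2 scale. PTPRC, CD53, MS4A1 and CD3E were at or near 0 throughout, and the part of the other markers in the member values was not tested.

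Transcription factors of secretory and ciliated epithelium were also present. SPDEF, an ETS factor of goblet and secretory cells, was at 0.214 and 0.361 CPM in Cal27 with DMSO, 0 and 0.0728 CPM in the knockout with DMSO, and 4.34 and 4.45 CPM with EPZ-6438. Its ratio within the knockout, 117 (95% interval 20.6 to 4662), stood on 1 read with DMSO. FOXJ1, the regulator of motile cilia, was at 0.214 and 0.0722 CPM, 0.156 and 0.146 CPM, and 3.92 and 4.19 CPM. RORA, a nuclear receptor, came to 2.90 and 3.35 CPM from a range of 0.291 to 0.856 CPM over the DMSO libraries. ZNF467, a zinc finger factor, came to 3.15 and 3.03 CPM.

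Of 36 silent simple and glandular epithelial genes 2 were members, SPDEF and FOXJ1. Outside the set 18 genes of that list were tested, of which 12 rose and 0 fell with EPZ-6438 (median log2 change 0.49). Over all tested genes 25.6% rose and 23.9% fell. AGR2, a secretory-pathway protein, ELF3, an epithelial ETS factor, and FOXA1, a pioneer factor of glandular tissue, rose by 2.42, 1.86 and 1.72 on the log2 scale, and EHF rose by 0.22. With DMSO, ELF3 and FOXA1 were lower in the knockout than in Cal27, by 1.35 and 0.71 on the log2 scale. Between those DMSO groups 6 of the 18 genes rose in the knockout and 6 fell, where 16.4% and 19.5% of all tested genes did. Of 140 developmental transcription factors that were silent, 0 were members and 8 came to between 1 and 3 CPM. None of 67 silent keratinocyte differentiation genes, 63 silent cancer-testis genes, 13 silent mucins or 6 silent interferon-stimulated genes was a member, and 2, 1, 1 and 0 of them came to between 1 and 3 CPM. As shares of all silent genes, members were 0.328% and genes between 1 and 3 CPM were 1.793%, so counts of 0 in small lists carry little information.

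Transporters, receptors and matrix genes followed the same pattern of low DMSO levels. SLC6A14, a carrier of neutral and cationic amino acids, was at 0.855 and 0.578 CPM in Cal27 with DMSO, 0.0778 and 0 CPM in the knockout with DMSO, and 7.577 and 5.996 CPM with EPZ-6438. SLC6A20, a proline carrier, stood at the other end, at 0.855 and 0.794 CPM, 0.856 and 0.946 CPM, and 2.72 and 3.48 CPM, a ratio of 3.50 within the knockout. GPR141, an orphan receptor, was at 0.570 and 0.144 CPM, 0.156 and 0.0728 CPM, and 7.58 and 8.51 CPM. GPR37, another orphan receptor, was at 0.214 and 0.578 CPM, 0.700 and 1.24 CPM, and 3.92 and 5.22 CPM, with both knockout DMSO libraries above both Cal27 DMSO libraries. Of 248 silent solute carriers and 103 silent G protein-coupled receptors by name, 2 and 2 were members, where 0.328% of all silent genes were.

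FBLN5, an elastic fibre protein, was at 0 and 0.0722 CPM in Cal27 with DMSO, 0.156 and 0.0728 CPM in the knockout with DMSO, and 5.62 and 6.90 CPM with EPZ-6438. COL3A1, a fibrillar collagen, was at 0.570 and 0.144 CPM, 0.545 and 0.510 CPM, and 2.21 and 4.06 CPM. ADAM19, a membrane metalloprotease, came to 3.66 and 3.35 CPM from 0.156 to 0.794 CPM over the DMSO libraries. COL3A1 is also among 12 fibroblast and smooth muscle markers, which summed to 21.8 to 24.4 CPM in Cal27 with DMSO, 10.4 to 12.5 CPM in the knockout with DMSO and 27.9 to 32.0 CPM with EPZ-6438. Of 7 other tested genes of that list 4 rose and 0 fell with EPZ-6438, where 25.6% and 23.9% of all tested genes did. COL1A2, ACTA2, PDGFRB and COL1A1 rose by 2.45, 2.43, 1.41 and 0.86 on the log2 scale, while THY1 was at 0 in both EPZ-6438 libraries and DCN was at 0.341 and 0.645 CPM. Whether that marker level has a part in the COL3A1 value was not tested.

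Signalling genes included RND1, a small GTPase, at 5.88 and 6.90 CPM with EPZ-6438 against 0.934 and 0.582 CPM in the knockout with DMSO. PRR5L, a component of mTOR complex mTORC2, came to 5.19 and 4.77 CPM, and PDE9A, a cGMP phosphodiesterase, to 5.19 and 5.09 CPM. PRKAR2B, a regulatory subunit of protein kinase A, came to 3.235 and 3.998 CPM, and IQGAP2, a cytoskeletal scaffold, to 3.41 and 2.71 CPM. The highest DMSO library of these 5 genes was at 0.939 CPM.

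The fixed list of melanocyte and neural markers held none of the 50 genes, but some members are best known from neurons, an assignment made by hand from general knowledge. DPYSL2, a microtubule-binding protein of growing axons, was at 0.570 and 0.794 CPM in Cal27 with DMSO, 0.934 and 1.02 CPM in the knockout with DMSO, and 7.83 and 6.38 CPM with EPZ-6438. ATRNL1, a membrane protein related to attractin, was at 0.285 and 0.433 CPM, 0.0778 and 0 CPM, and 5.108 and 5.996 CPM. NPTXR, the neuronal pentraxin receptor, CNTNAP2, a neurexin-family adhesion protein, and SLAIN1, a microtubule plus-end protein, came to means of 4.06, 3.10 and 5.70 CPM with EPZ-6438.

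The remaining 14 genes fall under none of these headings. C4orf19 was at 13.3 and 11.3 CPM with EPZ-6438 against 0.156 and 0.218 CPM in the knockout with DMSO. C4orf19 overlaps RELL1, which was read at 6.95 CPM with DMSO and 8.95 CPM with EPZ-6438. VNN3, a vanin-family locus and the 1 member that RefSeq does not class as protein-coding, was at 10.6 and 9.61 CPM with EPZ-6438 against 0.700 and 0.801 CPM. RBPMS, an RNA-binding protein, PARM1, a mucin-like membrane protein, and TMEM178B came to means of 7.37, 7.13 and 5.41 CPM. CLGN, a chaperone of the endoplasmic reticulum, PCYT1B, an enzyme of phosphatidylcholine synthesis, CHST2, a carbohydrate sulfotransferase, and KHDRBS3, a splicing regulator, came to 4.67, 4.13, 4.01 and 3.82 CPM. YPEL2, PLIN5, a lipid droplet protein, and C8orf48 came to 3.55, 3.35 and 3.05 CPM. TMEM71 and C15orf62 came to 4.21 and 3.37 CPM and overlap PHF20L1 and DNAJC17, read at 50.3 and 14.0 CPM with EPZ-6438 and at 48.0 and 13.3 CPM with DMSO. The strand setting of the counting is not given in the sources used here, so reads of such overlapping pairs cannot be told apart.

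Comparing the DMSO groups, edgeR called 1 of the 50 genes higher in the labelled knockout and 9 lower, where 16.4% of all tested genes rose and 19.5% fell (2169 and 2580 genes, or 2978 and 2088 with library size alone as the scale). Both groups had to be at or below 1 CPM to enter the set, so this is a description and nothing is read from the counts. C8orf48 was the gene called higher, by 2.92 ± 0.67 on the log2 scale (SE, edgeR adjusted p = 0.00241). The lower genes were SLC6A14, DEFB4A, ATRNL1, SERPING1, IQGAP2, PARM1, PLCL2, TMEM178B and CR2, with log2 changes from -4.0031 for SLC6A14 to -1.26 for CR2. Without the first knockout DMSO library, or without the second Cal27 DMSO library, 4 of the 50 were called lower, without the second knockout DMSO library 5 were, and DESeq2 called 3. Both Cal27 libraries lay above both knockout libraries for 18 genes and below them for 10.

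The 4 untreated libraries had no part in the choice of genes. At the level of 3 CPM or more, 1 of the 50 was on in untreated Cal27 (SLC6A20) and 4 in the untreated labelled knockout (RND1, VAV1, TNFRSF11B and NPTXR). Among the 15180 other silent genes 0.29% were on in untreated Cal27 and 0.152% in the untreated knockout. In SKN3 14 of the 50 (28.0%) were on and in BICR78 11 (22.0%), against 4.57% and 3.94% of the other silent genes. The median of those other silent genes was 0 CPM in both lines, so many of them had no reads there. The medians of the 50 were 0.739 CPM in SKN3 and 0.513 CPM in BICR78. For the 273 genes between 1 and 3 CPM with EPZ-6438 the shares were 3.66%, 4.03%, 30.04% and 26.01% in the same order of libraries, where those of the 50 were 2%, 8%, 28% and 22%, and for the 14907 under 1 CPM they were 0.228%, 0.0805%, 4.11% and 3.54%. With 1 library each, these shares are a description and no difference between them was tested.

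**Figure D2:**
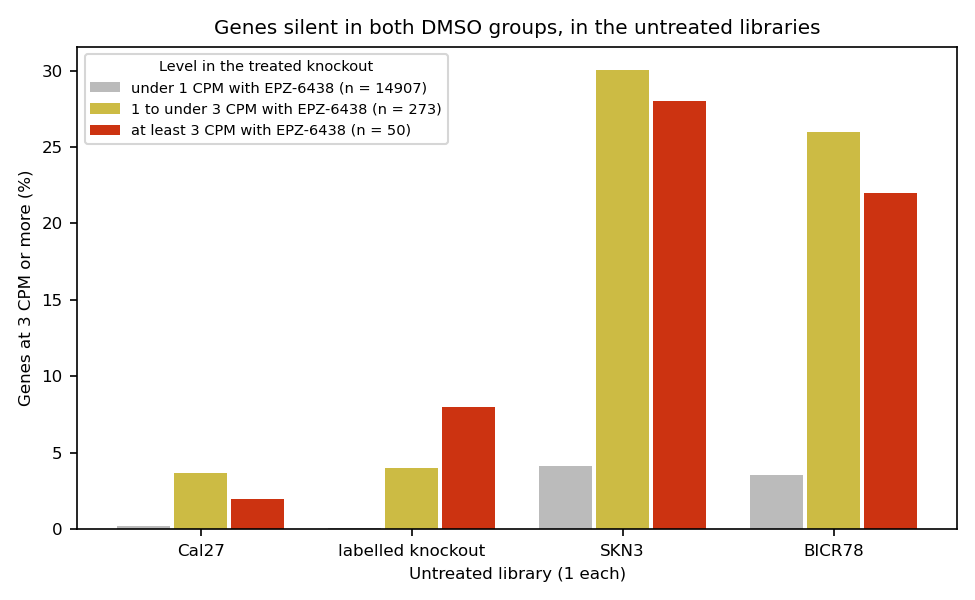
Percent of genes at 3 CPM or more in each untreated library (1 library each, no error bars), for genes silent in both DMSO groups that were under 1 CPM (grey, n = 14907), between 1 and 3 CPM (yellow, n = 273) or at least 3 CPM (red, n = 50) with EPZ-6438. The red and yellow bars are between 22.0% and 30.0% in SKN3 and BICR78, and the grey bars do not pass 4.11%.

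In the other lines 16 of the 50 genes were on in SKN3 or BICR78 and 9 in both: RBPMS, DPYSL2, PRR5L, PCYT1B, NPTXR, FOXJ1, YPEL2, COL3A1 and RORA. In SKN3, COL3A1 was at 27.4 CPM, RBPMS at 22.3 CPM and AZGP1 at 12.7 CPM. In BICR78, PRR5L was at 53.0 CPM, DPYSL2 at 49.5 CPM and RBPMS at 17.9 CPM. FOXJ1 was at 4.43 CPM in SKN3 and 9.64 CPM in BICR78, and at 0 in untreated Cal27. AZGP1 was at 0.154 CPM in BICR78 and CHST2, at 12.6 CPM in BICR78, was at 0.910 CPM in SKN3, so the lines did not share every gene.

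**Figure D3:**
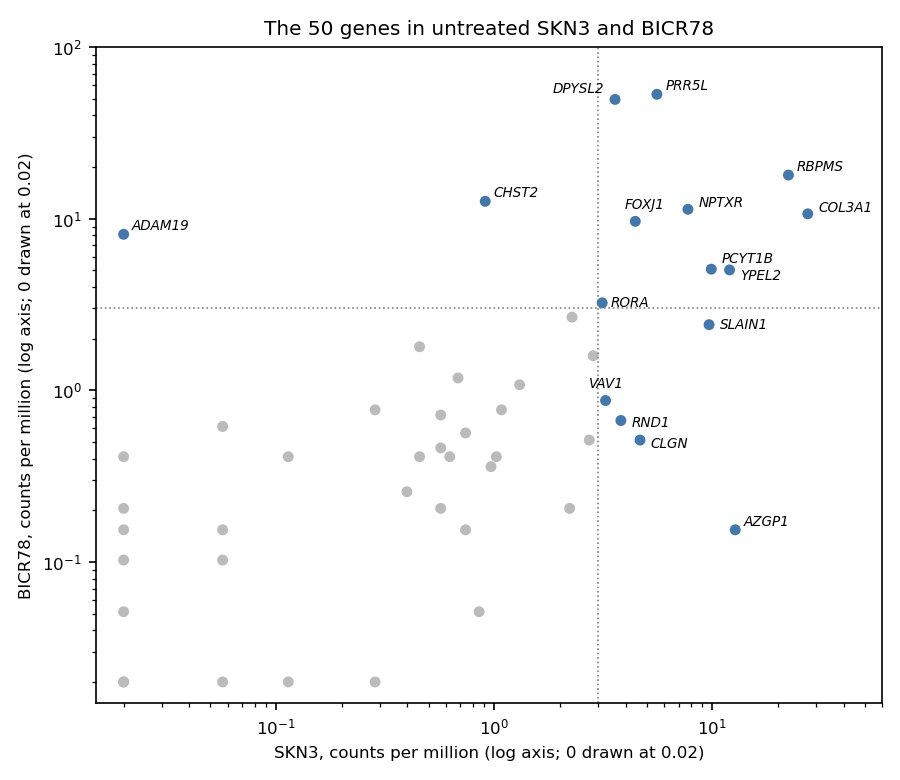
CPM of the 50 genes in untreated SKN3 (x axis) and untreated BICR78 (y axis), both log axes, with a 0 drawn at 0.02 and dotted lines at 3 CPM; each point is a gene, and blue, named points are at 3 CPM or more in at least 1 of the lines. The upper right holds 9 genes on in both, among them PRR5L (53.0 CPM) and DPYSL2 (49.5 CPM in BICR78).

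For 10 genes the SKN3 level, and for 11 genes the BICR78 level, was above the mean level reached with EPZ-6438 in the knockout. In the untreated knockout RND1, NPTXR and TNFRSF11B were above it as well. They were at 7.97, 4.39 and 4.34 CPM there, against means of 6.39, 4.06 and 4.12 CPM with EPZ-6438. At the other end 19 genes were under 1 CPM in all 4 untreated libraries, among them C4orf19, VNN3, GPR141, SLC6A14, PIP, SERPING1, SPDEF, CR2 and DEFB4A. DMBT1 was at 0.0920 CPM in untreated Cal27, 1.89 CPM in the untreated knockout, 0 in SKN3 (where a floor of 3 counts, the limit that 0 reads allow, is 0.171 CPM) and 0.205 CPM in BICR78. None of the 4 untreated libraries came near its 39.0 CPM with EPZ-6438.

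**Figure D4:**
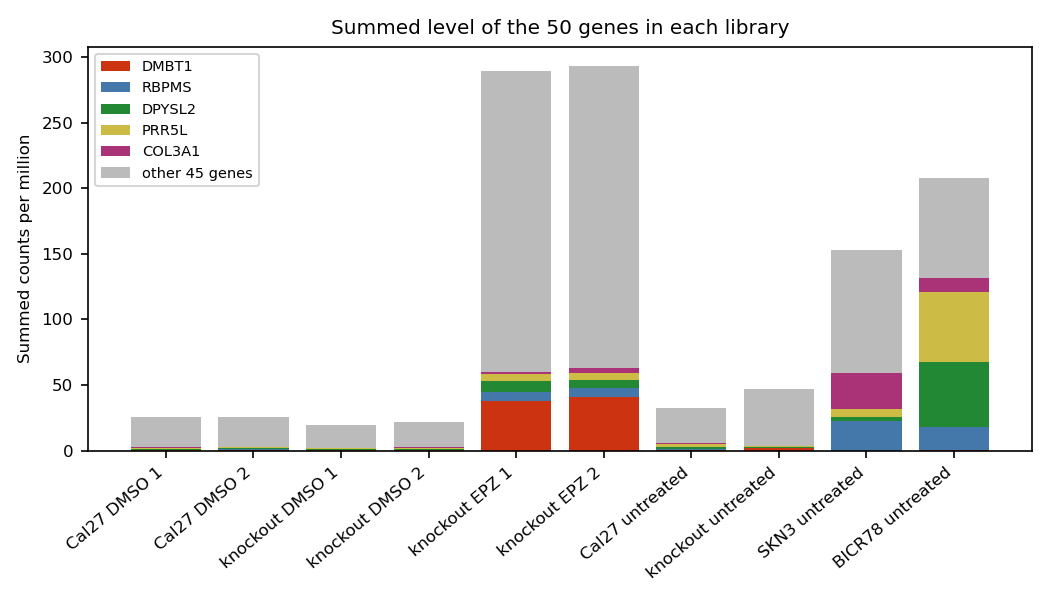
Summed CPM of the 50 genes in each of the 10 libraries (bars from 0, no error bars), with 5 genes coloured and the other 45 in grey. The EPZ-6438 bars reach 289.81 and 293.12 CPM with a visible DMBT1 part, while the SKN3 (153.24 CPM) and BICR78 (207.59 CPM) bars hold little DMBT1 and large parts of RBPMS, COL3A1, DPYSL2 or PRR5L.

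Between untreated Cal27 and the untreated labelled knockout, 26 of the 50 genes were higher in the knockout and 24 lower, with 1 library each and no test. RND1 was at 0.644 CPM in Cal27 and 7.97 CPM in the knockout, a ratio of 12.4 (exact 95% interval 7.18 to 23.1). TNFRSF11B was at 0.322 and 4.34 CPM, a ratio of 13.5 (6.29 to 34.5). VAV1 was at 0.322 and 4.01 CPM, a ratio of 12.5 (5.79 to 31.9). IL17C, at 0.276 and 2.45 CPM, and C4B, at 0.230 and 2.22 CPM, were higher in the knockout as well. In the DMSO pair the same ratio was 0.807 for RND1, 0.726 for TNFRSF11B and 0.824 for IL17C, with intervals that include 1. VAV1 and C4B were both at 2.85 (1.15 to 8.02) there, higher in the knockout in both pairs. That interval covers counting error only, and edgeR called neither gene between the DMSO groups (edgeR adjusted p = 0.0776 and 0.157). For RND1, TNFRSF11B and IL17C the difference between the untreated and DMSO pairs was not tested. RBPMS went the other way in the untreated pair, at 1.29 and 0.0944 CPM, as did PRKAR2B at 1.29 and 0.0472 CPM, SERPING1 at 0.966 and 0.236 CPM, and SLC6A20 at 4.42 and 1.04 CPM. SERPING1 was lower in the knockout in both pairs, with a DMSO ratio of 0.121 (0.0235 to 0.395).

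Where several starts were listed for a gene, only the first was used, so the promoter values describe that start. RefSeq promoter windows, from 250 bases before to 50 after the gene start, matched 31 of the 50 genes. Their median share of G and C was 65.0% and their median ratio of observed to expected CpG dinucleotides was 0.629, with 18 of 31 (58.1%) at 0.6 or more. The 5096 matched genes that stayed under 1 CPM had a median ratio of 0.364 with 33.8% at 0.6 or more, the 196 matched genes between 1 and 3 CPM had 0.644 and 53.1%, and the 8722 matched genes at 3 CPM or more in both DMSO groups had 0.853 and 86.0%. Over all 27305 promoters the median was 0.580 with 49.0%. The median of the 31 promoters thus lay between that of genes that stayed silent and that of genes on in both DMSO groups, and the 31 spread over both ends of the range.

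**Figure D5:**
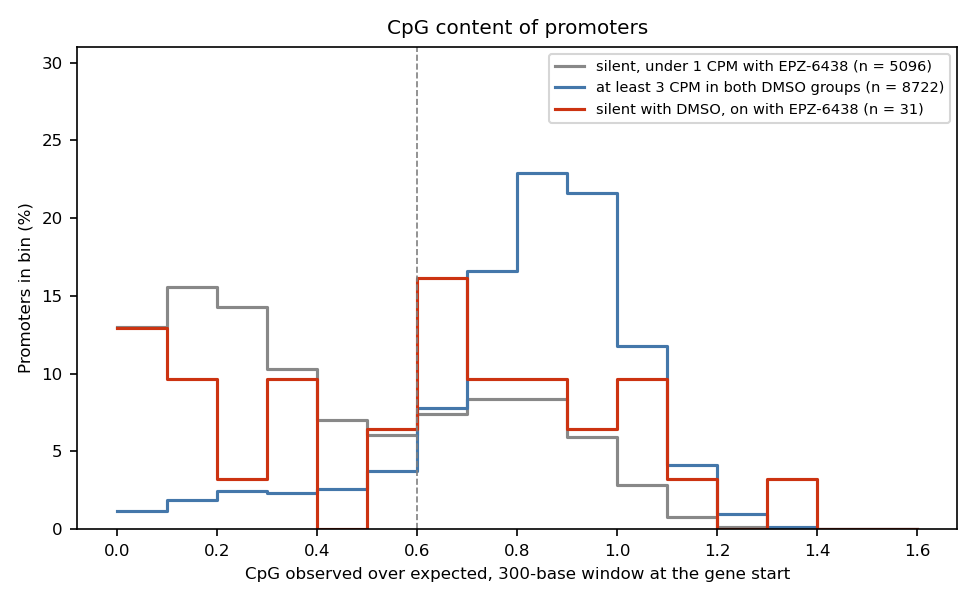
Percent of promoters (y axis) by ratio of observed to expected CpG dinucleotides in bins of 0.1 (x axis), for 31 promoters of the 50 genes (red), 5096 of silent genes that stayed under 1 CPM (grey) and 8722 of genes at 3 CPM or more in both DMSO groups (blue); the dashed line marks 0.6. The red line has promoters on both sides of the dashed line, 13 below it and 18 at or above it.

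ATRNL1 and CHST2 are shown as the CpG-rich end of the set, to set beside the windows of DMBT1 and PIP. Each is the 250 bases before the RefSeq gene start in GRCh38.p14, plus strand, ATRNL1 at chr10:115093115-115093364 and CHST2 at chr3:143119521-143119770, with CpG dinucleotides in capitals.
ATRNL1: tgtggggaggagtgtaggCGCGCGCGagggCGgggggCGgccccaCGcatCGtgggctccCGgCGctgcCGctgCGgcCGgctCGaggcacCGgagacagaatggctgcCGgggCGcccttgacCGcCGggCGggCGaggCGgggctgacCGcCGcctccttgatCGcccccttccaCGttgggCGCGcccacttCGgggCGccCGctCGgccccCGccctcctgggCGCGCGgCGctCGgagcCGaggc
CHST2: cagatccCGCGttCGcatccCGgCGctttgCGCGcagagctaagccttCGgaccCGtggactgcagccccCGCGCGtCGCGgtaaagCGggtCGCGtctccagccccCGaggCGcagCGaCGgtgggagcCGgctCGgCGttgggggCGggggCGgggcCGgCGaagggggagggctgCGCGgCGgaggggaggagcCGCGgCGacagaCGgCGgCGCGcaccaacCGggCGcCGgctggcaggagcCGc
The ATRNL1 window held 39 CpG dinucleotides and 80.0% G and C, and that of CHST2 held 42 and 78.0%. The 18 genes at 0.6 or more (C4orf19, PARM1, FBLN5, SLAIN1, ATRNL1, TMEM178B, CLGN, CR2, CHST2, PRKAR2B, YPEL2, PLCL2, ADAM19, PLIN5, RASGRP2, SLC6A20, ZNF467 and IQGAP2) had a median ratio of EPZ-6438 to DMSO of 16.5, from 3.50 to 149. The 13 genes under 0.6 (DMBT1, GPR141, SLC6A14, PIP, AZGP1, PRR5L, VAV1, SPDEF, PCYT1B, TNFSF13B, C15orf62, RORA and CNTNAP2) had a median of 23.6, from 4.78 to 260.5. In each class 5 genes were on in SKN3 or BICR78.

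Short motifs were searched on both strands of the same windows. The interferon response element core GAAANNGAA was found in 1 of the 31 promoters, that of TNFSF13B, and in 8.29% of all promoters. The GAS letters TTCNNNGAA were found in 1, that of PIP, and in 7.88% of all. TATAAA was found in 2, DMBT1 and PRR5L, and in 11.95% of all. The AP-1 letters TGANTCA were found in 4, those of GPR141, SLC6A14, PIP and C15orf62, or 12.9%, and in 7.76% of all. The NF-kappaB letters GGGNNTTCC were found in 2, CLGN and ADAM19, and in 6.60% of all, and the grainyhead-like letters AACNNGTT in 0 and in 3.50% of all. With 31 promoters, 1 promoter is 3.23%, and the absence of these letters from a window says nothing about the factor.

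All 50 genes had a RefSeq position, and no 2 of them were neighbours or lay within 500 kb of each other. Chromosome 7 held 8 of the 50 (16%), where it holds 5.21% of silent genes and 4.81% of genes on in both DMSO groups: GPR141, PIP, AZGP1, TMEM178B, GPR37, PRKAR2B, CNTNAP2 and ZNF467. Chromosome 8 held 7 (14.0%, against 3.49% and 3.48%): RBPMS, DPYSL2, TMEM71, TNFRSF11B, KHDRBS3, DEFB4A and C8orf48. Chromosomes 9, 18, 20 and Y held 0.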

How the data were processed

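RNA was measured in 10 libraries, made after ribosomal RNA depletion per the labels' protocols. The submitters' processing notes name the build hg38, HISAT2 2.1.0, featureCounts 1.6.1, CASAVA 1.7 and Picard 2.23.1, with no settings, annotation or strand handling. The deposited table holds raw read counts per gene, whole numbers that were used unchanged. The 7 CUT&Tag samples were not analysed here.

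CPM was computed as counts over the column total. Samples were grouped by title. The 6 DMSO and EPZ-6438 libraries entered 1 fit in edgeR (version 4.0.16, under R 4.3.3): default filter on low counts, TMM scaling, quasi-likelihood test, checked first on simulated data. A Benjamini-Hochberg adjusted p below 0.05 made a call, and "rose" and "fell" mean called genes. DESeq2 1.42.0 was an alternative. No label says that replicates were separate cultures, so p-values reflect the spread between these libraries alone, which may be technical. The members and the 25 gene lists were chosen with earlier results of these data known. Genes were named by level with EPZ-6438 or in an untreated library, by list or family membership, by nearness to a limit and, outside the set, by the 4 lowest adjusted p-values of a list. Symbols were matched to RefSeq (GRCh38.p14): 26967 of 34496 rows by symbol and 482 by an older one. Intervals are exact 95% intervals of counting error. Library totals were 11745655 to 21738951 counts. Other limits, scalings and filters, the replicate block and leaving out each library were tried. The values of 1 member are not reported here, and it is counted in every total.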

Additional observations from a re-analysis of the deposited data

Results flagged for a closer look

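DMBT1 was 20.5 times higher in the untreated labelled knockout than in untreated Cal27 (exact 95% interval 5.32 to 175), while the DMSO pair of the same cells gave a ratio of 0.524 (0.116 to 1.96). The values of the untreated and DMSO pairs also lay in opposite directions for DPYSL2. It was at 1.43 CPM in untreated Cal27 and 0.613 CPM in the untreated knockout, against DMSO means of 0.682 and 0.977 CPM. Its DMSO ratio was 1.435 (0.764 to 2.74), an interval that includes 1, as does the DMSO interval of DMBT1. FBLN5 was at 0.276 CPM in untreated Cal27 and 0 in the untreated knockout, with a DMSO ratio of 3.15 (0.253 to 165). GPR37 was at 0.966 CPM and 0 in the untreated pair, with a DMSO ratio of 2.48 (1.18 to 5.56). SLC6A20 was at 4.42 CPM in untreated Cal27, above the 3.10 CPM it came to with EPZ-6438, and at 1.04 CPM in the untreated knockout, with a DMSO ratio of 1.09 (0.592 to 2.03). With 1 untreated library per line the difference between the pairs was not tested for any of these 5 genes.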

How the results depend on the processing

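The number of genes moved most with the limits: 20 with a silent limit of 0.5 CPM, 97 with an EPZ-6438 limit of 2 CPM and 20 with one of 5 CPM, against 50. It was 34 when each library had to meet the limits, 49 for protein-coding genes and 48 to 58 when each library was left out in turn. All 50 were called higher with EPZ-6438 in every setting run, where 25.6% of all tested genes were in the main setting. The limits used this contrast, so nothing is read from that count. In the comparison of the DMSO groups, 2 of the 50 were called higher with no low-count filter, and 1 to 2 when libraries were left out. Those called lower numbered 1 when the 2 groups were fitted alone (15 of the 50 were then tested), 3 with DESeq2, and 4 to 8 when libraries were left out, against 9. Genes on in untreated Cal27 numbered 8 at 1 CPM and 0 at 5 CPM. In the untreated knockout they were 14 and 1, in SKN3 8 at 5 CPM, and in BICR78 17 at 1 CPM. In the 250 bases before the start alone, 0 of 31 promoters held the interferon response element core. TNF family genes that fell with EPZ-6438 numbered 4 to 7 when libraries were left out. With library size alone as the scale, 2978 genes rose and 2088 fell between the DMSO groups, against 2169 and 2580. The replicate block gave 3299 genes that rose and 3071 that fell with EPZ-6438, and 2054 and 2458 between the DMSO groups. The differences between replicate 1 and replicate 2 had correlations of 0.0193, 0.0283 and -0.0165 between pairs of groups, over 10552 genes. Same-numbered libraries share only a number. All 876 other comparisons of single genes, made for EPZ-6438 against DMSO, kept their direction and side of the threshold. They cover the 50, chosen by this contrast, and genes outside the set, many of them named by low adjusted p-values in it. Nothing is therefore read from that agreement. Depth limits the DMSO values, where 1 CPM is 12.8 to 14.0 reads.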
